A study of Mus musculus with 12 samples.

Results

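The cytosolic ribosomal protein genes encode the proteins that surround the ribosomal RNA in the ribosomes of the cytoplasm, with Rpl genes for the large subunit, Rps genes for the small subunit and Rplp genes for the stalk of the large subunit. They were chosen by gene name, as a row named Rpl or Rps followed by a number and, where present, one of the letters a, l, x or y, or named Rplp0, Rplp1, Rplp2 or Rpsa, without any name ending in -ps. The rule found 90 genes among the 55679 genes of the table, 51 named Rpl, 3 named Rplp and 36 named Rps (counting Rpsa). The annotation lists 85 of them as protein-coding and 5 (Rps3a2, Rps3a3, Rpl6l, Rps12l1 and Rpl32l) as processed pseudogenes that carry a member's name.

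Ribosomes hold 1 copy of most of these proteins, and their mRNAs begin with a 5′-terminal oligopyrimidine tract through which mTOR and Larp1 control their translation. A few of the genes have a paralog, a second gene for a closely related protein, and Rpl3l is the paralog of Rpl3 known from heart and skeletal muscle. Ribosomal protein genes also have left many processed pseudogenes, reverse-transcribed copies of the mRNA inserted elsewhere in the genome, and short reads can be shared between a gene and such copies.

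RNA was sequenced from the lung and the heart of 6 male mice of the 129S6/SvEvTac background, aged 9 to 13 weeks. The 3 wild-type (WT) mice carried intact Adam19, which encodes a membrane-bound metalloproteinase. The 3 knockout (KO) mice were homozygous for an allele in which exons 6 and 7 of Adam19 were replaced by an in-frame tdTomato construct with an antisense hygromycin resistance cassette, present in every cell from conception. Each of the 4 groups (WT lung, KO lung, WT heart and KO heart) thus held 3 libraries, and the labels tie each lung to the heart of the same mouse. The mouse identifiers of WT and KO animals begin with different prefixes, so that genotype and what those prefixes stand for cannot be told apart.

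Gene values are given as deposited, on a log2 scale of estimated read counts, and differences are on the same scale. The libraries held 17674788 to 35862932 estimated counts. Rn7s1, a copy of the 7SL RNA, took between 2.18% and 33.7% of a library's counts, with the highest shares in WT lung 1 (33.7%), WT lung 2 (29.6%) and KO lung 3 (20.8%). Adam19, the targeted gene, stood at 9.14, 9.41 and 9.12 in WT lung and at 4.44, 3.21 and 3.50 in KO lung, and at 9.17, 9.25 and 10.27 in WT heart and 6.67, 6.01 and 6.56 in KO heart, so that the genotype groups did not overlap in either tissue. Of the marker lists, all 8 heart muscle genes were lower in lung in both genotypes, while 6 of 6 lung epithelial genes in WT and 5 of 6 in KO were higher there. The summed heart muscle genes stood at 13.6 to 14.9 in lung and 20.8 to 21.1 in heart, and Myh6, the main myosin heavy chain of mouse heart, was at 12.5 to 14.2 in lung. Of the other lists, lymphocytes (5 of 6), macrophages (5 of 5), endothelium (5 of 5) and proliferation (2 of 5) had genes called higher in lung in both genotypes, and red blood cells had 0 of 5. Of 4 skeletal muscle genes tested, 1 was called higher and 1 lower in lung in WT, and 0 and 1 in KO. The part of these cell types in the differences between lung and heart below was not tested. WT lung 2 stood apart from the other lungs in skeletal muscle genes (Myh1 10.2, Acta1 10.3), and results were also computed without it.

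A member was tested where its deposited value was at least 3.46 (log2 of 11) in at least 3 libraries of a comparison. Deposited gene values differ from log2 estimated counts by a constant in each library (−0.63 to 0.80). The same value thus stands for different counts between libraries. By this filter 85 of the 90 members were tested in every comparison. Rpl10l, the testis paralog of Rpl10, was at 0 in 11 libraries and at 1.81 in KO lung 3. Rpl32l was at 0 in all 12 libraries. Rpl39l and Rpl6l did not exceed 3.13 and 3.10. Rps12l1 was at 0 in 11 libraries and at 7.80 in WT lung 3. A member was called where its adjusted p was under 0.05 (limma, adjusted over all genes tested by the method of Benjamini and Hochberg), its fold difference was at least 1.5 and the mean of the higher group was at least 6.

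The level of the family as a whole was followed through its median. The median of the 85 tested members was 12.38, 11.99 and 12.80 in WT lung 1 to 3, and 12.18, 12.19 and 12.12 in KO lung. In heart it was 12.18, 11.70 and 12.20 in WT and 12.22, 11.98 and 12.39 in KO. WT lung 3 had the highest median and WT heart 2 the lowest, and both were WT libraries. Counted per length, as a share of the reads per base over all protein-coding genes, the members took 6.37% to 10.8% in lung and 2.60% to 4.75% in heart, without overlap between the tissues. Genes of the mitochondrial genome took 2.47% to 3.62% of this total in lung and 17.0% to 35% in heart. With those genes left out, the members' share was 6.55% to 11.2% in lung and 4.0% to 5.72% in heart, again without overlap. In tissue samples of this kind, fewer cells of a type and less RNA per cell cannot be told apart.

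**Figure D1:**
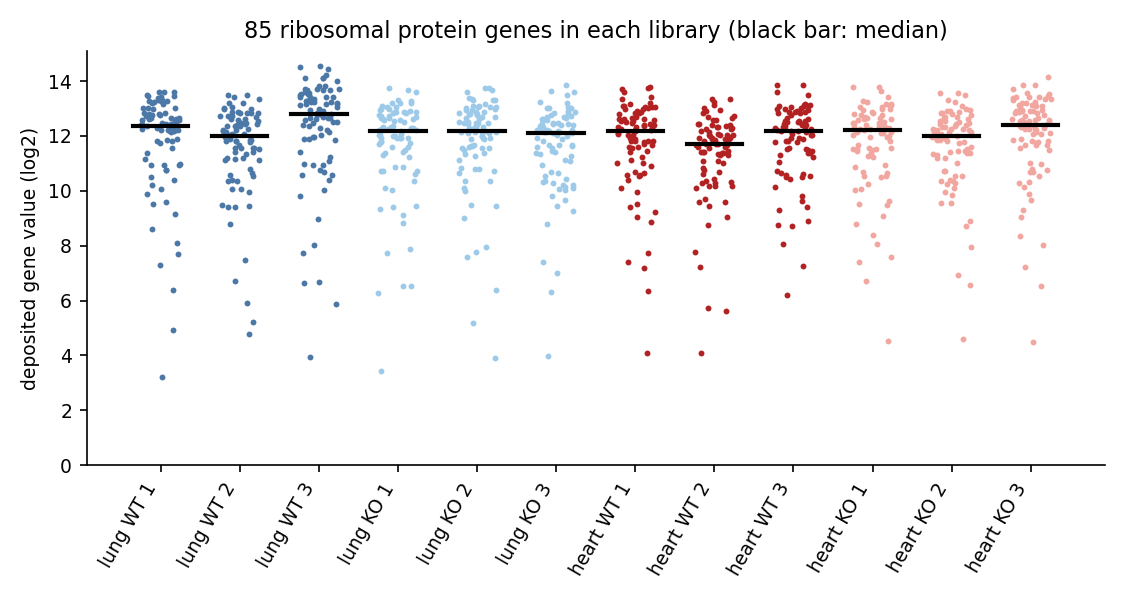
Deposited gene value (log2, vertical axis) of the 85 tested ribosomal protein genes in each of the 12 libraries, 1 point per gene, with the median of the 85 as a black bar. The medians lie between 11.70 (WT heart 2) and 12.80 (WT lung 3), and the few points below 6 include Rpl3l in lung and Rps27 in both tissues.

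The comparison of lung with heart was made separately in the 3 WT mice and in the 3 KO mice, which share no library. In WT mice 16 of the 85 members were called, 14 higher in lung and 2 lower, where 50.2% of all 16636 genes tested were called, 29.7% higher and 20.5% lower. In KO mice 11 members were called, 5 higher in lung and 6 lower, where 53.2% of 16802 genes were called, 30.9% higher and 22.3% lower. Both counts lie below the background share on the deposited scale. The median difference of the members (lung minus heart) was 0.38 in WT and −0.02 in KO, beside 0.30 and 0.28 over all genes tested. A member was higher in lung in 70 of 85 cases in WT and in 38 of 85 in KO, beside 59.1% and 58.0% of all genes. Centring each library on its median left 10 members called in WT (8 higher, 2 lower) and 15 in KO (4 higher, 11 lower), while quantile normalization gave 48 (46 higher, 2 lower), beside 49.1% of all genes, and 29 (24 higher, 5 lower), beside 53.0%. The WT count is then above its background share. The median of all genes was 0.11 and 0.13 with centring and 0.06 and 0.08 with quantile normalization. With the mouse as a block 23 members were called in WT and 13 in KO. The WT count was 26 without WT lung 2, 10 without WT lung 3, 8 without WT heart 2 and 10 without WT heart 3, and the KO median was 0.05 without KO lung 3 and 0.09 without KO heart 3.

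The same 6 members were called in both genotypes, 37.5% of the WT calls and 54.5% of the KO calls. The share of all genes called in both genotypes was not computed, so the overlap shows nothing particular to the family. Rpl3l and Rps2 were lower in lung than in heart, and Rpl3, Rps19, Rps23 and Rpl5 were higher. Over all 85 members the sign was the same in both genotypes for 49. Without Rpl3l, the Pearson r between the WT and the KO differences was 0.33 over 84 members, a description across genes that are not independent replicates and are scaled by library.

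**Figure D2:**
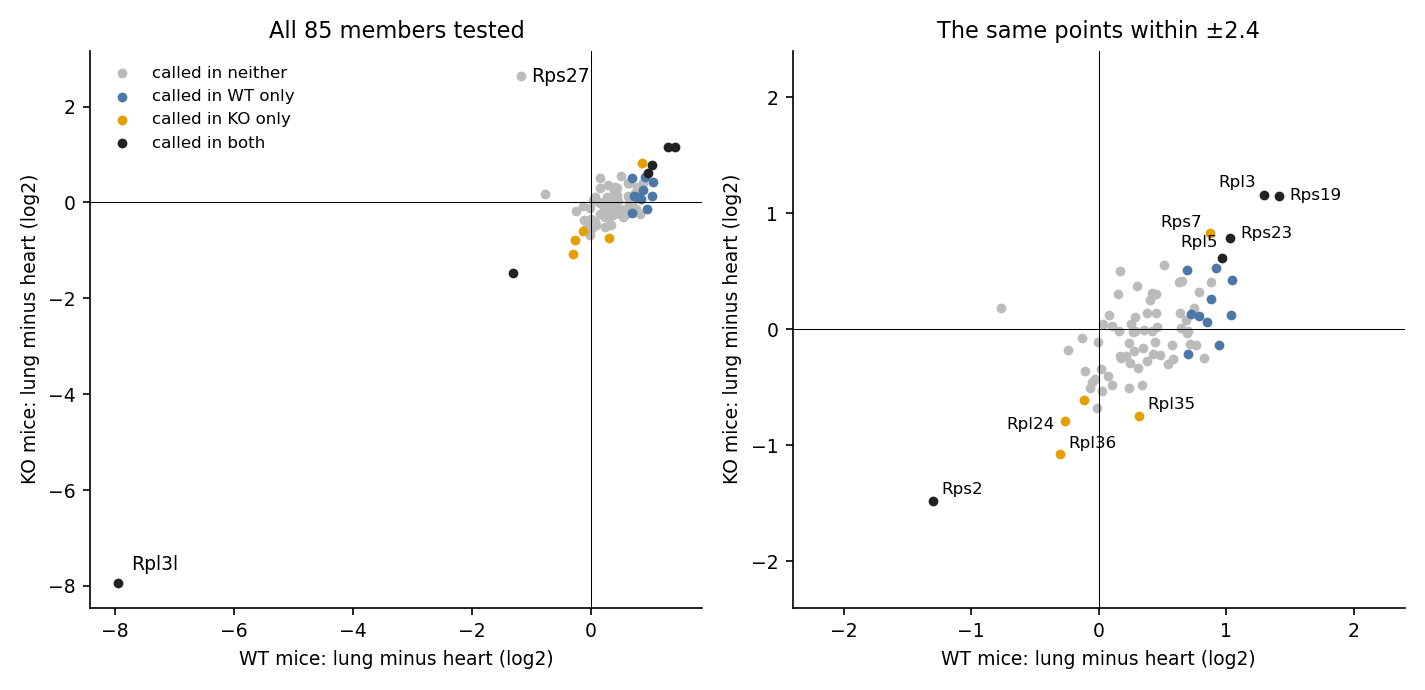
Difference between lung and heart (log2) of the 85 tested ribosomal protein genes in WT mice (horizontal axis) and KO mice (vertical axis), with colours for calls in neither, 1 or both genotypes, and on the right the same points within 2.4 of zero. Rpl3l stands alone at −7.95 and −7.93, Rps2 lies at −1.30 and −1.48, and Rpl3, Rps19, Rps23 and Rpl5 lie above zero on both axes.

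The pair Rpl3 and Rpl3l showed the widest tissue difference of the family. Rpl3 encodes the large subunit protein that reaches toward the peptidyl transferase centre, and Rpl3l takes its place in ribosomes of striated muscle. The coding sequences, 1212 and 1224 bases in the GENCODE models used here, were identical at 74.4% of aligned positions, with a longest shared run of 22 bases. The first 30 coding bases are shown because the paralogs differ there, while Rpl3 and its processed copy Rpl3-ps1 are identical over them and differ at 2 of 1210 aligned bases in all. Capitals mark the 7 bases at which Rpl3l differs from Rpl3.
Rpl3: atgtctcacaggaaattctcagctcccagg
Rpl3-ps1: atgtctcacaggaaattctcagctcccagg
Rpl3l: atgtcCcacCggaaGttctcTgcCccTCgg
Rpl3 lies on the minus strand at chr15:79961825-79976069 (GRCm39), Rpl3l on the plus strand at chr17:24946751-24955119, and Rpl3-ps1 at chrX:13068810-13070019.

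In lung Rpl3l stood at 3.22, 4.78 and 3.94 in WT and at 3.44, 3.92 and 3.97 in KO. In heart it stood at 11.88, 11.70 and 12.21 in WT and at 11.53, 11.77 and 11.82 in KO. Every heart was far above every lung, and the highest lung was WT lung 2, the library with the high skeletal muscle genes. The difference was −7.95 (SE 0.38, adjusted p = 1.07e-06, limma) in WT and −7.93 (SE 0.19, adjusted p = 5.02e-08) in KO. Rpl3l was not among the genes that the authors' table marks as detected.

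Rpl3 alone stood at 10.97, 11.13 and 11.10 in WT lung and 11.29, 11.57 and 11.08 in KO lung. In heart it stood at 10.12, 9.58 and 9.61 in WT and at 10.24, 9.96 and 10.28 in KO. All 6 lungs were above all 6 hearts, by 1.30 (SE 0.18, adjusted p = 0.00036, limma) in WT and 1.15 (SE 0.15, adjusted p = 0.000178) in KO. Most of the reads that could come from Rpl3 were assigned to near-identical copies. Summed with these copies, Rpl3 was higher in lung than in heart by 1.09 ± 0.16 (SD over 6 mice).

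Rpl3l made up between 0.078% and 0.262% of the sum of Rpl3l and Rpl3 with its copies in lung (mean 0.147% ± 0.072, SD, n = 6). In heart its share was 41.3%, 44.6% and 57.2% in WT and 34.0%, 41.1% and 40.1% in KO (mean 43.1% ± 7.76, n = 6). The sum of the pair on the log2 scale was 13.32 ± 0.28 in lung and 13.05 ± 0.11 in heart, a difference of 0.27 ± 0.27 (SD) that ran from −0.23 to 0.55 between the 6 mice. Lung thus held slightly more of the pair on average, where Rpl3 with its copies alone was higher by 1.09 ± 0.16. Rpl3 with its copies is the larger part of the sum in most libraries, so the sum was bound to differ less than Rpl3l. The sum also depends on the scaling between libraries.

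**Figure D3:**
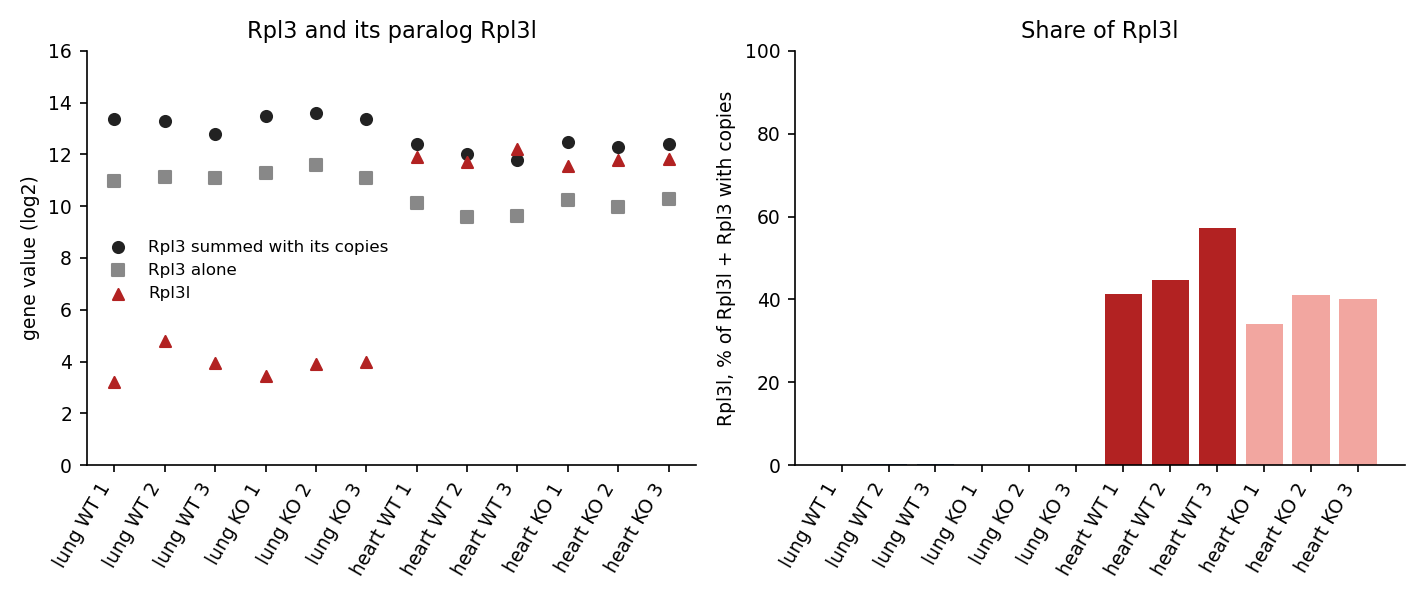
Left, log2 gene value of Rpl3 summed with its copies, of Rpl3 alone and of Rpl3l in each of the 12 libraries; right, Rpl3l as a percentage of the sum of Rpl3l and Rpl3 with its copies. Rpl3l lies between 3.22 and 4.78 in lung and between 11.53 and 12.21 in heart, and its share runs from 0.078% to 0.262% in lung and from 34.0% to 57.2% in heart.

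Rps2, which encodes a small subunit protein near the path of the mRNA, was the other member called lower in lung in both genotypes. Its values were 12.40, 12.09 and 12.28 in WT lung, 12.49, 12.68 and 11.91 in KO lung, 13.80, 13.02 and 13.84 in WT heart and 13.78, 13.58 and 14.16 in KO heart. All hearts were above all lungs. The difference was −1.30 (SE 0.25, adjusted p = 0.00187, limma) in WT and −1.48 (SE 0.23, adjusted p = 0.000471) in KO, and −1.32 and −1.49 when its copies were added.

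Rps19, a small subunit protein gene whose mutation is the best known cause of Diamond-Blackfan anaemia in people, was higher in lung. It stood at 12.77, 13.00 and 13.68 in WT lung, 12.86, 13.00 and 13.20 in KO lung, 12.04, 11.38 and 11.78 in WT heart and 11.69, 11.85 and 12.08 in KO heart. No heart reached the lowest lung. The difference was 1.41 (SE 0.27, adjusted p = 0.00202, limma) in WT and 1.15 (SE 0.14, adjusted p = 0.000139) in KO.

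Rps23, a small subunit protein of the decoding centre, was at 12.18, 11.83 and 13.21 in WT lung and 12.05, 12.19 and 12.02 in KO lung. Its heart values were 11.69, 11.41 and 11.04 in WT and 11.25, 11.18 and 11.48 in KO, all below the lungs. The difference was 1.03 (SE 0.35, adjusted p = 0.0295, limma) in WT, with WT lung 3 well above the other WT lungs, and 0.79 (SE 0.12, adjusted p = 0.000362) in KO. Summed with its copies it kept its size in WT at 1.0 but not its call (adjusted p = 0.0566), and in KO it stayed called at 0.69. The WT call was also lost without WT heart 2 (1.04, adjusted p = 0.0691) and without WT heart 3 (0.86, adjusted p = 0.102).

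Rpl5, which with Rpl11 and the 5S ribosomal RNA can bind Mdm2, was at 9.59, 9.39 and 10.56 in WT lung and 9.44, 9.48 and 9.68 in KO lung. In heart it was at 8.87, 9.06 and 8.72 in WT and 8.80, 8.91 and 9.04 in KO. The tissues did not overlap, and the difference was 0.97 (SE 0.30, adjusted p = 0.0213, limma) in WT and 0.62 (SE 0.12, adjusted p = 0.00202) in KO. Only 4.91% to 8.43% of the estimated counts of Rpl5 and its copies were assigned to Rpl5 itself, and the summed difference was 0.59 in WT (adjusted p = 0.0402) and 0.40 in KO (adjusted p = 0.0567, not called). The WT call was lost without WT heart 1 (0.96, adjusted p = 0.0601) or WT heart 3 (0.88, adjusted p = 0.0681), and in KO the difference fell under 1.5-fold without KO lung 3 (0.54) or KO heart 1 (0.56).

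In WT alone 10 members were called, all higher in lung. Rps12 (1.04) and Rpl35a (1.04) had the largest differences, followed by Rpl21 (0.94), Rpl27a (0.92), Rpl36a (0.88), Rpl39 (0.85), Rpl10 (0.79), Rps14 (0.73), Rps3 (0.70) and Rpl17 (0.69). Rpl27a was at 0.55 and under 1.5-fold, so not called, once its copies were added. The libraries of the tissues overlapped for Rpl39. Rps12 stood at 13.45, 12.69 and 13.72 in WT lung, 12.62, 11.85 and 12.26 in WT heart, 13.05, 13.33 and 12.29 in KO lung and 12.42, 12.07 and 12.90 in KO heart. WT lung 1 and 3 were the highest of these, and in KO the tissues overlapped. Rpl35a stood at 12.58, 12.25 and 13.55 in WT lung, 11.82, 11.61 and 11.83 in WT heart, 12.24, 11.98 and 12.19 in KO lung and 11.80, 11.74 and 12.49 in KO heart, with WT lung 3 highest. The adjusted p rose above 0.05 for Rps12 without WT lung 1 (0.96), WT lung 3 (0.83) or WT heart 2 (0.85), for Rpl35a without WT heart 2 (0.97), for Rpl21 without WT lung 1 (0.84) or WT lung 3 (0.83), for Rpl36a without WT heart 2 (0.74) or WT heart 3 (0.85), and for Rpl10 without WT lung 1 (0.74), WT lung 3 (0.58), WT heart 1 (0.89) or WT heart 2 (0.57). Rpl39, Rps14 and Rps3 each lost their call without WT lung 1, WT lung 3, WT heart 1, WT heart 2 or WT heart 3.

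In KO alone 5 members were called. Rps7 was higher in lung by 0.83 (adjusted p = 0.012, limma), but by 0.17 and without a call once its copies were added. Rpl36 (−1.08, adjusted p = 0.0128), Rpl24 (−0.79, adjusted p = 0.00174), Rpl35 (−0.74, adjusted p = 0.0142) and Rplp0 (−0.61, adjusted p = 0.00456), all of the large subunit and Rplp0 at the base of its stalk, were lower in lung. Rpl24 stood at 11.60, 11.57 and 11.68 in KO lung and 12.26, 12.22 and 12.75 in KO heart, and at 11.81, 11.56 and 12.37 in WT lung and 12.20, 11.95 and 12.38 in WT heart. The KO tissues did not overlap for Rpl24, and the WT tissues did. Rpl36 stood at 11.74, 11.64 and 10.70 in KO lung against 12.47, 11.98 and 12.86 in KO heart, and at 12.20, 11.14 and 12.02 in WT lung against 12.31, 11.41 and 12.55 in WT heart. Rplp0 stood at 12.57, 12.68 and 12.38 in KO lung and 13.13, 12.98 and 13.35 in KO heart, without overlap, and at 12.67, 12.55 and 13.18 in WT lung against 13.09, 12.59 and 13.08 in WT heart. Rpl35 had the other sign in WT (0.31) and was not called there. In KO Rpl35 with its copies was at −0.49 (adjusted p = 0.0706, limma) and not called. Without KO heart 3 the calls of Rpl36 (−0.87), Rpl35 (−0.54) and Rplp0 (−0.51) were lost, without KO lung 3 those of Rpl35 (−0.61) and Rplp0 (−0.52), and without KO heart 1 that of Rps7 (0.54). Under quantile normalization Rpl36, Rpl24 and Rplp0 were not called. Rplp0 also lost its call when libraries were centred on the median of the members. With all 12 libraries in 1 fit Rps7 was not called.

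Rpl14, a large subunit protein gene on the plus strand at chr9:120400489-120403866 (GRCm39), stood at 12.37, 12.37 and 13.44 in WT lung and 12.28, 12.37 and 12.46 in KO lung. In heart it was at 12.21, 11.68 and 11.93 in WT and 11.97, 11.89 and 12.28 in KO. It was higher in lung by 0.78 in WT (adjusted p = 0.0509, limma) and 0.32 in KO (adjusted p = 0.0556) and was called in neither. With its copy Rpl14-ps1 added the difference was 0.72 in both genotypes, and the KO difference was then called (adjusted p = 0.00351). Rpl14-ps1, on chromosome 7, had 0 in each WT lung library, against 9.74, 11 and 11.18 in KO lung, where it took 14.7%, 27.8% and 29.3% of the sum. In heart it stood at 7.54, 8.44 and 0 in WT and at 4.38, 0 and 2.68 in KO. The copy thus did not overlap between the genotypes in lung, beside 12.8% of all genes tested. The rise of the KO difference rests on this copy. The authors list Rpl14-ps1 among the genes with higher expression in KO lung.

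Because the overall level of the family differed between libraries, each member was also set against the median of the family in its own library. On this relative scale 10 of 85 members were lower in lung than in heart in all 6 mice, and all 10 remained so with copies added. They were Rpl3l (mean −8.10), Rps2 (−1.55), Rpl36 (−0.86), Rpl24 (−0.69), Rplp0 (−0.53), Rps29, Rpl28, Rpsa, Rplp2 and Rpl29. Another 9 were higher in lung in all 6 mice, and 5 of them also with copies added. They were Rps19 (1.11), Rpl3 (1.06), Rps23 (0.74), Rpl5 (0.62), Rpl27a (0.56), Rpl17 (0.43), Rps4x, Rpl9 and Rpl31. The 5 that held were Rps19, Rpl3, Rps23, Rpl17 and Rps4x. With copies added Rpl5 was at 0.22 and Rpl27a at 0.13, each higher in lung in 4 of 6 mice. Rpl9 was then at 0.20 (5 of 6 mice) and Rpl31 at −0.05 (2 of 6 mice). Members of both subunits were in each set. With copies added, 19 members were lower and 10 higher in lung in all 6 mice. Centring on the family median places members on both sides of it by construction. The same count over all genes was not made.

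Paralogs other than Rpl3l differed by smaller amounts between the tissues. For the 7 pairs in which both genes passed the filter, the log2 ratio of paralog to parent was compared between lung and heart within the 6 mice, with an exact two-sided sign-flip permutation test whose smallest possible p is 0.0312. The ratio of Rpl3l to Rpl3 was −7.31 in lung and 1.85 in heart (difference −9.17 ± 0.51, SD, exact p = 0.0312). The ratio of Rpl36al to Rpl36a was −0.72 in lung and −0.13 in heart (−0.59 ± 0.31), and that of Rpl7l1 to Rpl7 was −3.53 and −2.94 (−0.59 ± 0.33). Both were lower in lung in 6 of 6 mice. The ratio of Rpl36al to Rpl36 was higher in lung in 6 of 6 mice (0.67 ± 0.54). These 2 genes were paired by name only and are not taken as paralogs. Their coding sequences share 59.0% of aligned positions, beside 87.9% for Rpl36a and Rpl36al. None of the 7 pairs passed after adjustment over the 7, where the smallest adjusted p was 0.0547. With copies added, an alternative chosen after seeing the data, 5 of the 7 passed (Rpl3l to Rpl3, Rpl36al to Rpl36, Rpl36al to Rpl36a, Rpl7l1 to Rpl7 and Rps27l to Rps27, each with an exact permutation p of 0.0312 and an adjusted p of 0.0437).

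The remaining pairs did not keep 1 sign. Rpl22l1, a paralog of Rpl22, was nearer to its parent in lung in 5 of 6 mice (−1.46 in lung, −1.91 in heart, exact permutation p = 0.0938). Rps4l lay far below Rps4x in both tissues (−6.05 in lung, −5.34 in heart, exact permutation p = 0.0938). The ratio of Rps27l to Rps27 varied by an SD of 4.16 between mice. With the copies of Rps27 added that ratio became −3.63 in lung and −2.78 in heart, lower in lung in 6 of 6 mice (−0.85 ± 0.35). Exact permutation tests of WT against KO for these ratios gave p between 0.2 and 1, in a design of 3 against 3 that cannot go below 0.1. The pairs Rpl10 with Rpl10l, Rpl32 with Rpl32l, Rpl39 with Rpl39l, Rpl6 with Rpl6l and Rps12 with Rps12l1 were not tested, since the paralog did not pass the filter.

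The transcripts of Rps24 differed between the tissues. Rps24 encodes a small subunit protein and lies on the plus strand at chr14:24537193-24547028 (GRCm39). Its gene values ran from 12.84 to 13.63 in lung and from 12.76 to 13.13 in heart, with a difference of 0.15 in WT and 0.31 in KO, called in neither. Under quantile normalization the total was called higher in lung in both (0.75 and 0.95). The 3 leading transcripts share 4 exons and differ in which short exon follows. The short exons decide where translation ends, and are shown here with the in-frame stop codon in capitals.
ENSMUST00000223999, 18-base exon at chr14:24544120-24544137: aaaTGAaatacctagcag
ENSMUST00000169826, 20-base exon at chr14:24545498-24545517: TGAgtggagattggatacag
ENSMUST00000225023, start of the last exon at chr14:24545843-24545872: ccaaaggagTAGatctgcggtgacttgatg
The form with the 18-base exon thus adds 1 codon before its stop, the next none, and the last, which skips both short exons, adds 3.

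The form with the 18-base exon made up 23.3%, 20.7% and 27.9% of the estimated Rps24 counts in WT lung and 25.1%, 23.4% and 28.6% in KO lung. In heart it made up 76.2%, 78.8% and 78.5% in WT and 74.3%, 78.2% and 76.7% in KO. The tissues were far apart, at 24.8% ± 2.99 and 77.1% ± 1.72 (SD, n = 6), a difference of −52.3 ± 3.74 percentage points over the mice. The form with the 20-base exon alone took 49.4% to 57.2% in lung and 15.8% to 19.3% in heart, a difference of 36.3 ± 3.39 points. The form with neither short exon took 11.2% to 18.8% in lung and 2.0% to 2.58% in heart, a difference of 14 ± 2.51 points. Each of the 3 differences had the same sign in 6 of 6 mice (exact sign-flip permutation p = 0.0312, the smallest possible, and 0.0312 after adjustment over the 3). Between genotypes in lung, 2 of the 3 forms did not overlap and reached an exact permutation p of 0.1, the smallest that 3 against 3 allows. The form with the 20-base exon took 52.2%, 53.6% and 49.4% in WT lung and 53.9%, 56.7% and 57.2% in KO lung, and the form with neither took 18.8%, 17.6% and 17.6% and then 16.6%, 15.9% and 11.2%. The form with the 18-base exon overlapped in lung (exact permutation p = 0.5), and in heart the exact permutation p was 0.4, 0.7 and 0.4. These shares are estimates from short reads over transcripts that share most of their bases.

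**Figure D4:**
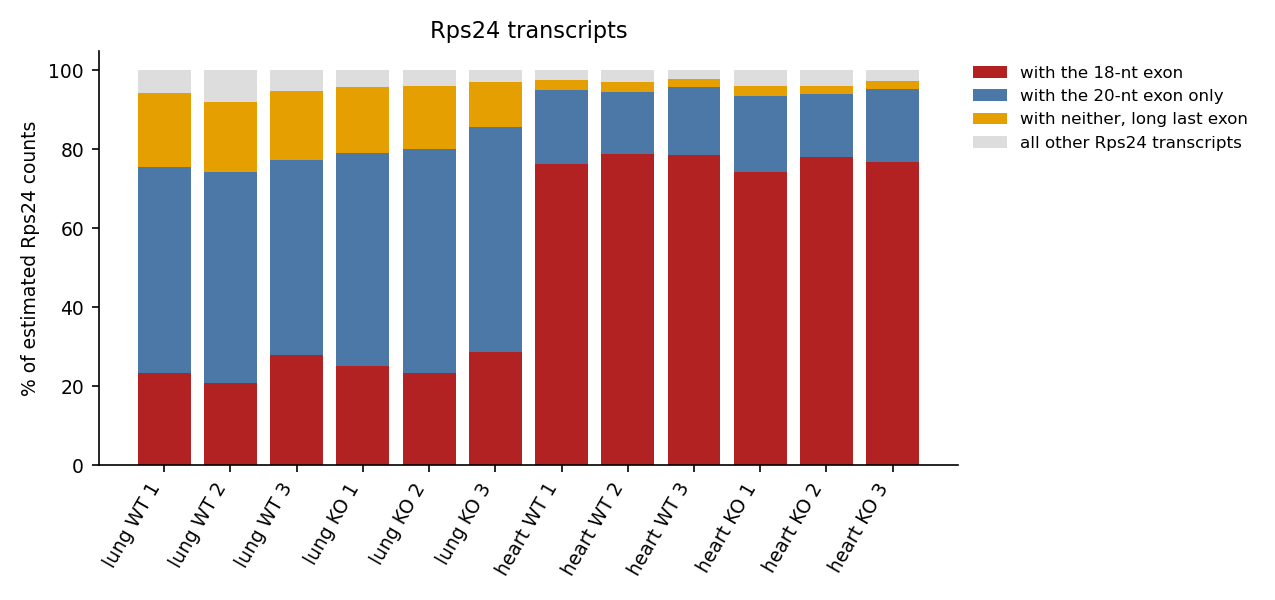
Percentage of the estimated Rps24 counts (vertical axis) assigned to the form with the 18-base exon, the form with the 20-base exon alone, the form with neither and all other Rps24 transcripts in each of the 12 libraries. The form with the 18-base exon takes 20.7% to 28.6% in lung and 74.3% to 78.8% in heart.

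Many members share their reads with near-identical copies, which bears on every value above. Among the 90 members, 81 had at least 1 annotated copy with 95% or higher identity over 200 or more bases, and there were 608 such copies in all. In 43 members at least 99% of the summed counts were assigned to the member itself (median over libraries), while in 29 members it was under 90% and in 13 under 50%. The spread between replicates, pooled over the 4 groups, exceeded an SD of 0.6 in 10 members taken alone and in 3 (Rpl11, Rpl39l and Rps16) when copies were added.

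In Rpl29, Rpl34 and Rps27 the assignment moved between libraries, and Rpl29 is described for a pattern noticed after its values were seen. Rpl29, a large subunit protein gene at chr9:106306586-106311297 (GRCm39), stood at 7.28, 10.36 and 10.94 in WT lung and 6.54, 10.35 and 10.22 in KO lung. Its heart values were 7.17, 10.11 and 10.58 in WT and 7.58, 10.36 and 10.68 in KO. The low values were those of mouse WT 1 and mouse KO 1 in both tissues. In these 2 mice 5.24% to 9.73% of the counts of Rpl29 and its copies went to Rpl29, and in the other 4 mice 58.8% to 64.3%, with Gm8210 (chr1:43228316-43228798, 483 bases) as the main copy. With copies added, the pooled SD of Rpl29 dropped from 1.93 to 0.31.

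Gm8210 matches the Rpl29 mRNA with 3 mismatches. Within the matched stretch, a read must cover at least 1 of the mismatches to tell the genes apart. Windows of 25 bases around them are shown, with the differing base in capitals at position 13, counted from 1 at the 5′ end.
Rpl29, first window: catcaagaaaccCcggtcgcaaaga
Gm8210, first window (C13A): catcaagaaaccAcggtcgcaaaga
Rpl29, second window: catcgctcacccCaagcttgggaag
Gm8210, second window (C13T): catcgctcacccTaagcttgggaag
Rpl29, last window: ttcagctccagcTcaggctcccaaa
Gm8210, last window (T13C): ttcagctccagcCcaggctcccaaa

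Rpl34, of the large subunit (chr3:130519106-130524155, minus strand), showed the same kind of split in other mice. Its values were 8.60, 8.77 and 8.96 in WT lung, 8.83, 11.26 and 10.31 in KO lung, 9.22, 7.75 and 8.89 in WT heart and 9.08, 10.38 and 10.98 in KO heart. Mice KO 2 and KO 3, whose identifiers share a prefix, were high in both tissues. In these 2 mice 65.2% to 71.0% of the summed counts went to Rpl34, and in the other 4 mice 8.19% to 24.5%, with Rpl34-ps1 (chr6:71101594-71101947) as the main copy. Rpl34-ps1 is 354 bases long and differs at 2 of them, shown in the same way.
Rpl34, first window: agcacctaaatcTgcatgtggcgtg
Rpl34-ps1, first window (T13C): agcacctaaatcCgcatgtggcgtg
Rpl34, last window: cgttgtgaaagtCttgaaggcacaa
Rpl34-ps1, last window (C13G): cgttgtgaaagtGttgaaggcacaa

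Rps27, a small subunit protein gene at chr3:90119819-90120977, stood at 4.93, 5.21 and 5.89 in WT lung and 6.26, 5.19 and 10.08 in KO lung. In heart it stood at 4.07, 4.10 and 11.38 in WT and 4.52, 4.61 and 4.49 in KO. KO lung 3 and WT heart 3 were thus far above the rest, and they come from different mice. Rps27 received 9.10% and 42.1% of the summed counts in these libraries and 0.26% to 0.98% in the other 10, its main copy being Rps27rt on chromosome 9, identical over 345 bases. Summed with its copies Rps27 ranged from 12.83 to 14.24 in lung and from 12.35 to 12.74 in heart. That sum was higher in lung by 1.1 in WT (adjusted p = 0.00791, limma), which was called, and by 0.58 in KO (adjusted p = 0.0313), which is under 1.5-fold and was not. Rps27 alone gave −1.18 in WT and 2.64 in KO, both uncalled.

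**Figure D5:**
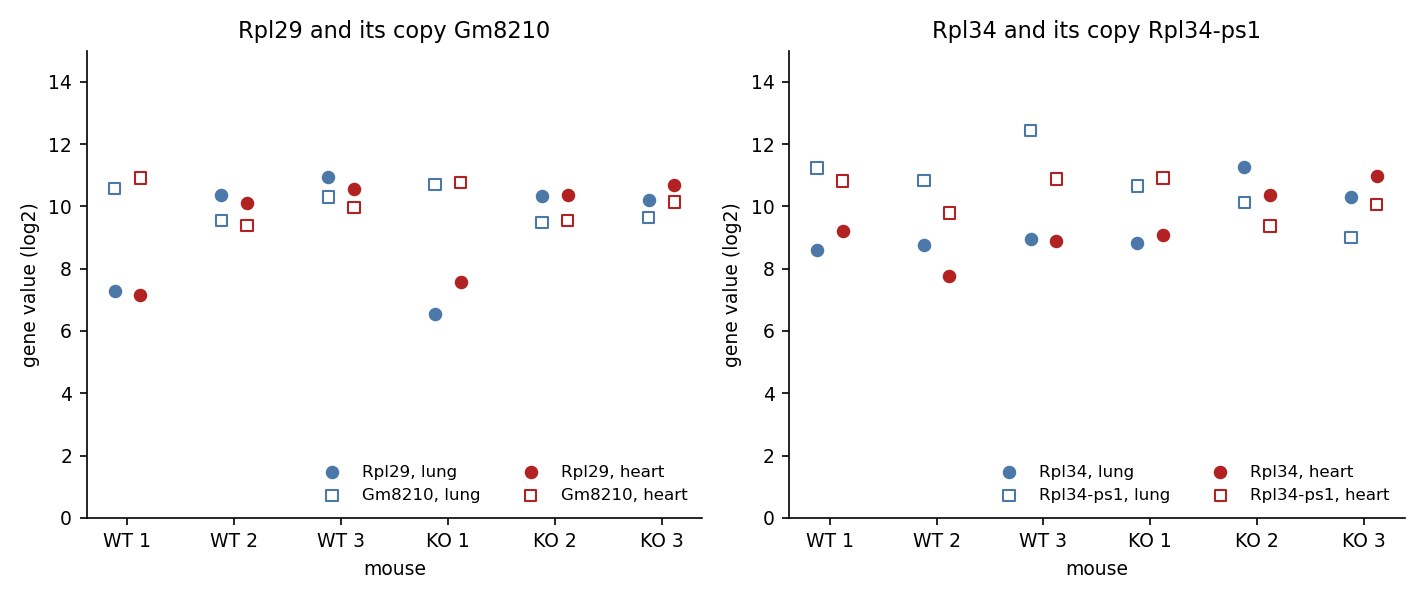
Log2 gene value (vertical axis) of Rpl29 and its copy Gm8210 (left) and of Rpl34 and its copy Rpl34-ps1 (right) in the lung and heart of each of the 6 mice (horizontal axis). Rpl29 is low in both tissues of WT 1 and KO 1 (6.54 to 7.58) and Rpl34 is high in both tissues of KO 2 and KO 3 (10.31 to 11.26).

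Per length, with copies added, and scaled so that all protein-coding genes sum to 1000000, levels can be compared between members. The 85 protein-coding members had a median of 1234 in lung and 635 in heart, and 82 of 85 were higher in lung (mean of 6 libraries each). This direction depends on the scale, and the total for heart includes its larger share of mitochondrial genes. On the deposited scale 70 of the 85 tested members were higher in lung in WT and 38 in KO (58 and 24 with libraries centred on their median). Those counts are without copies, and the 85 tested include Rps3a2 and Rps3a3 but not Rpl10l and Rpl39l. With copies added, 74 of 88 members were higher in lung in WT and 45 of 88 in KO. Rpl24, Rpl36 and Rplp0, called lower in KO lung on the deposited scale, were higher in lung on the scale per length. The highest in lung were Rps27 (4824 ± 1735, SD, n = 6), Rpl10 (3723 ± 1048) and Rps12 (3332 ± 1256). In heart they were Rplp1 of the stalk (2045 ± 524), Rps2 (1918 ± 411) and Rps27 (1345 ± 164). Neighbours in each of these orders lay within 1 SD of each other, apart from Rps2 and Rps27 in heart. The lowest in lung were Rpl10l (0.0), Rpl39l (0.6) and Rpl3l (1.8 ± 0.9), and in heart Rpl10l (0.0), Rpl39l (0.3) and Rps4l (5.5 ± 1.6). Rpl3l had 247 ± 41.6 in heart and stood at rank 72 of 85 there. On the log2 scale the levels of the 85 genes in the tissues had a Pearson r of 0.91, across genes and with the same length and copy sums in both.

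Other genes of the translation machinery were counted by the same rule, from lists chosen for their roles. Of all genes tested, 29.7% were called higher and 20.5% lower in lung in WT, and 30.9% and 22.3% in KO. Of 78 genes for proteins of the mitochondrial ribosome, which makes the proteins encoded in mitochondrial DNA, 73 in WT and 77 in KO were called lower in lung and none higher, with median differences of −1.60 and −1.93. Their summed value was 14.4 to 15.2 in lung and 16.3 to 16.8 in heart, so the tissues did not overlap. Among 6 genes of cytosolic elongation factors 1 was called higher and 2 lower in lung in each genotype. Eef1a1, the general form of the factor that delivers aminoacyl-tRNA, was higher in lung by 1.91 in WT and 1.78 in KO. Eef1a2, its form in muscle and neurons, was lower, at −7.21 and −7.25, and Eef1d was at −1.01 and −1.66.

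Of 21 genes for initiation and for control of the oligopyrimidine mRNAs, none was called higher in lung in WT and 1 in KO. In WT 6 and in KO 7 were called lower, beside 20.5% and 22.3% of all genes. The median difference of the 21 was −0.31 in WT and −0.28 in KO, smaller than in most genes named next. The cap-binding Eif4e was at −1.98 in WT and −1.82 in KO, its inhibitor Eif4ebp1 at −2.01 and −1.99, Larp1 at −1.07 and −0.59, and Mtor at −1.01 and −0.84. Pabpc1, the poly(A)-binding protein, was the gene called higher in KO (1.57). Of 25 genes for ribosome assembly and its transcription, 1 was called higher and 8 lower in WT, and 0 higher and 11 lower in KO. Their median difference was −0.49 in WT and −0.48 in KO. Polr1a, the largest subunit of RNA polymerase I, was at −1.69 and −1.57, its initiation factor Rrn3 at −1.17 and −1.08, and Bysl of small subunit assembly at −1.88 and −1.64.

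Between KO and WT no ribosomal protein gene was called in either tissue. The copy Rpl14-ps1, which the naming rule leaves out and the authors list as higher in KO lung, is described above. In lung 0 of 85 members were called, where 11 of 16551 genes (0.0665%) were, and 6 members had an unadjusted p under 0.05, beside 5.93% of all genes. In heart 0 of 85 were called, where 13 of 15303 genes (0.085%) were, and 2 members had an unadjusted p under 0.05, beside 7.46% of all genes. A limma fit with precision weights (voom) also called 0 in both. No gene of the other translation lists was called by genotype in either tissue.

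In lung the median member was −0.25 in KO relative to WT (0.01 over all genes). Of the members 67 were lower and 18 higher, beside 51.6% of all genes higher. Much of this rested on WT lung 3, the library with the highest family median, since without it the median was −0.04 and 36 members were higher. In heart the median was 0.17 (0.03 over all genes), with 72 members higher, beside 55.0% of all genes. It was 0.02 without WT heart 2 and 0.04 without KO heart 3. The genotype groups did not overlap for 4 members in lung (1 higher in KO) and for 1 member, Rps13, in heart, named here because it was the only one. Over all genes tested the groups did not overlap for 12.8% in lung and 13.0% in heart.

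The members with the largest differences between genotypes were as follows, none of them called. In lung Rps27 was higher in KO by 1.84 (adjusted p = 0.841, limma), Rpl34 by 1.35 (SE 0.50, adjusted p = 0.806) and Rpl3 by 0.25. Lower in KO lung were Rps27a at −0.84 (SE 0.34, adjusted p = 0.809), Rps27l at −0.75 and Rpl10 at −0.68. In heart Rpl34 was higher by 1.53 (SE 0.50, adjusted p = 0.60), Rpl12 by 0.66 and Rps4l by 0.56, and Rps27 (−1.98), Rps16 (−0.78) and Rpl7l1 (−0.25) were lower. With copies added Rpl34 was at −0.52 in lung and 0.42 in heart, Rps27 at −0.53 and −0.01, and Rpl10 at 0.03 in lung.

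Rpl10, a large subunit protein needed for joining of the subunits, was the member of these whose lung groups did not overlap. It stood at 10.06, 9.49 and 10.38 in WT lung and 9.43, 9.01 and 9.44 in KO lung. Only 2.46% to 7.95% of its summed counts were assigned to Rpl10 itself, and its sum stood at 13.72, 13.59 and 14.76 in WT and 14, 14.35 and 13.81 in KO, which overlap.

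Whether the genotype difference was itself different in lung and heart was tested in 1 fit over all 12 libraries. No member passed at an adjusted p under 0.05 (limma), where 1 of 17666 genes (0.00566%) did. An unadjusted p under 0.05 was found in 8 of 85 members, beside 7.88% of all genes. With the mouse as a block it was found in 18 members (7.85% of all genes) and with each library centred on its median in 4 (7.79%). The median member was −0.44 (lung difference minus heart difference), which joins the lower family median of KO lung with the higher one of KO heart given above. For Rpl3 the difference was −0.15 (SE 0.24, adjusted p = 0.892) and for Rpl14 −0.46 (SE 0.36, adjusted p = 0.759).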

How the data were processed

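Transcripts were quantified by the authors with Salmon against the GENCODE comprehensive mouse transcripts (mm39), from stranded total RNA libraries of whole frozen lung and heart. The deposited transcript values are log2 of 1 plus the estimated count, and the deposited gene values are log2 values that differ from the sum of their transcripts by a constant in each library, from −0.63 to 0.80. How the authors made this adjustment is not given in the sources used here. The submitters' processing notes also name cutadapt, STAR and limma 3.42.2.

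Groups and mice were taken from the sample titles. Gene values were tested with limma 3.58.1 (R 4.3.3) with a variance trend, in each comparison's own 6 libraries, on genes above log2 of 11 (3.46) in at least 3 libraries. No count model was run. Copies were found by aligning GENCODE transcripts with blastn 2.17.0 (95% identity over 200 bases or more, covering at least 50% of the copy), and sums were formed on the linear scale. Exact permutation tests were two-sided. The scripts were tested on simulated data. Each library comes from 1 mouse, and p-values measure the spread between these mice. The members, the gene lists and the tests were chosen with earlier results of these data known.

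Genes were named by a rule: Rpl3, Rpl3l and Rpl14, both genes of each paralog pair, the called members with the largest differences whose groups did not overlap (up to 10 in each direction), or the 3 largest in each direction where none was called, Rps24, and the highest and lowest 3 per length. Rpl29, Rps13, and members called with overlapping groups were named after their values were seen. Lung and heart of a mouse are paired by the mouse identifier in the titles. Deviations from the group means of the same mouse had an r of 0.49, 0.288 and 0.0737 in WT 1 to 3 and 0.824, −0.103 and −0.0442 in KO 1 to 3 over 85 members. Over 17666 genes r was 0.049, 0.136 and −0.024 in WT and 0.020, −0.068 and −0.036 in KO. The mice with the highest r over members, WT 1 and KO 1, are those with the low Rpl29 values. The part of Rpl29 in these r values was not tested. Alternatives were another pseudocount, filters, centring, quantile normalization, voom, sums with copies, the mouse as a block and leaving out each library. Sequences were read from the GENCODE transcripts and the GRCm39 genome.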

Additional observations from a re-analysis of the deposited data

How the results depend on the processing

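The genotype comparisons had 0 members called under every alternative that was run, leaving out each library included, and the same held for the test of the genotype difference between the tissues. Leaving out 1 library moved the median member between −0.46 and −0.04 in lung and between 0.02 and 0.26 in heart. The named members' values, the pair ratios and the Rps24 shares were followed under the alternatives. Of these, 1406 kept their side of the threshold or, for ratios and shares, stayed within 1 SD of the main value. Among the 1406, 84 had another sign (such as the uncalled values of Rpl34 and Rps27 between genotypes in lung). A further 47 gained a call, 72 lost one and 3 reversed.

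The counts between lung and heart depended on the scaling. In WT the 16 members called became 10 when libraries were centred on their median (also with copies added), 48 with quantile normalization, 25 with all 12 libraries in 1 fit, 4 when libraries were centred on the median of the members and 5 when that was done with copies added. In KO the 11 called became 29 with quantile normalization. Quantile normalization gave a median member of 0.82 in WT and 0.36 in KO. Leaving out 1 library gave 8 (without WT heart 2) to 26 (without WT lung 2) calls in WT and 9 to 14 in KO, and medians of 0.17 to 0.58 and −0.13 to 0.09. Rpl3l, Rps2 and Rps19 were called under all 19 alternatives in both genotypes. Rpl3 was called under all 19 in KO, and in WT lost its call under 1, with copies added and libraries centred on the median of the members (0.63, adjusted p = 0.20, limma). Rps27 between WT lung and heart turned from −1.18 to 1.1 when copies were added, with or without the block, and to 0.91 with centring as well. The combinations of 2 choices and the centring on the members were chosen after seeing the data.

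The mouse as a replicate block, by the pairing of lung and heart, raised the calls from 16 to 23 in WT and from 11 to 13 in KO. It left the test of the genotype difference between tissues at 0. No member called lost its call under the block alone. With copies added 5 of the 7 pairs passed after adjustment (0.0437), where none did without (0.0547). Rpl36 with Rpl36al, paired by name only, is among the 5. With 4 of the 7 pairs of 1 sign in all 6 mice, leaving out 1 mouse gave 4 to 6, with 0.0625 then the smallest possible p.

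Estimated counts divide reads among near-identical copies, and 13 members kept under 50% of their sum. With 3 mice a group, exact tests between genotypes cannot go below 0.1.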
